A study of Rattus norvegicus with 14 samples.

Results

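Rat IEC-6 cells kept for 72 h with 100 µM NS-398 were compared with IEC-6 cells kept for the same time with DMSO, the solvent. The comparison used 8 of the 14 one-colour Affymetrix rat arrays of the study, chosen by their titles. The 4 NS-398 arrays carried the labels 1, 2, 1b and 2b, and so did the 4 DMSO arrays. Arrays with the suffix b and arrays without it form 2 label sets, each with 2 NS-398 and 2 DMSO arrays. What the suffix stands for is not stated in the labels. Of 31042 probe sets other than controls, 16816 reached a signal of 100 on at least 2 of the 8 arrays and were tested. The second-highest signal of the nearest probe sets was 100.03 just inside this limit and 99.96 just outside it. Both indomethacin arrays (100 µM, 72 h, labels 1b and 2b) were used once, as a second drug at the same dose and time. Of the SC-560 arrays (1 µM, 72 h), those labelled 1b and 2b entered the estimate of the spread in that last comparison. All 4 SC-560 arrays, like the indomethacin arrays, also entered an alternative fit of all 14 arrays. Cultures were pooled before hybridisation, so p-values reflect array-to-array spread that can be technical and not variation between independent cultures.

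IEC-6 is a cell line from rat small-intestinal crypts. NS-398 is an inhibitor selective for cyclooxygenase-2, the inducible enzyme that makes prostaglandin precursors, and indomethacin inhibits both cyclooxygenases. Cells meet chemical stress with several transcriptional programmes. The factor NRF2 (gene Nfe2l2) drives genes for glutathione synthesis, quinone reduction and heme breakdown. ATF4 drives amino acid uptake and synthesis when translation initiation is restrained. Sensors in the endoplasmic reticulum drive chaperone genes, HSF1 drives cytosolic heat shock proteins, and HIF-1 drives glycolytic and angiogenic genes. NF-kB, p53 and the MAP kinase cascades induce genes that feed back on the same pathways.

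Promoter sequences of 3 genes that rose are shown, because they hold core motifs of the factors named above. They are RefSeq sequences of the GRCr8 assembly, written 5′ to 3′ on the strand of the gene, from 250 bases before the annotated start to 50 bases after it. Capitals in Gstp1 (chr1:210769656-210769955, minus strand) mark the antioxidant response element core TGACNNNGC. In Ankrd37 (chr16:53001257-53001556, plus strand) and Ddit4 (chr20:28436988-28437287, minus strand) they mark the hypoxia response element core ACGTG or its reverse complement, and the run of 6 capitals in Ankrd37 holds a match on each strand.
Gstp1: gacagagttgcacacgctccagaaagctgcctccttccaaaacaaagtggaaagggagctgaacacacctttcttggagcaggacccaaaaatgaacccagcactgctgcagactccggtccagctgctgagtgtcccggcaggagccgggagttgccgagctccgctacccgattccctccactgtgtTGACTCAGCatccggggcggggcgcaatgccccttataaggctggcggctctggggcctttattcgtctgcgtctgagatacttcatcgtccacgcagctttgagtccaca
Ankrd37: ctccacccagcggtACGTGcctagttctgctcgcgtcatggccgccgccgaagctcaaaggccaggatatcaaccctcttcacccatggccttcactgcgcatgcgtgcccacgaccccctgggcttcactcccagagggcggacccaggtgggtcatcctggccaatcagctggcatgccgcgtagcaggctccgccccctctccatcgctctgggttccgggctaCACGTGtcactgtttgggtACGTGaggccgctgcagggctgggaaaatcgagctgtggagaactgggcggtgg
Ddit4: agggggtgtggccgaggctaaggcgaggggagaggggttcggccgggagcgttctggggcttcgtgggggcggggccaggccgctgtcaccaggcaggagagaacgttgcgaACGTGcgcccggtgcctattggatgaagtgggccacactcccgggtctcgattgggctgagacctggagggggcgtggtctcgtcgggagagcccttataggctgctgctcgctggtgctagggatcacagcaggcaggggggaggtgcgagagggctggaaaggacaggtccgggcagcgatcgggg
The hypoxia core occurred in 9 of the 16 promoters available for genes of the glycolysis and hypoxia list that rose, and in 19 of the 31 promoters of the whole list, searched on both strands. It occurred in 26.37% of the 8095 promoters of tested genes and in 19.25% of all 33469 promoters. The antioxidant core occurred in 5 of 12 promoters of glutathione genes that rose (Gclm, Gsta1, Gstm5, Gstm7 and Gstp1) and in 7 of the 26 promoters of that list. In the NRF2 list it occurred in 1 of 8 promoters of genes that rose, that of Nfe2l2 itself, and in 2 of the 17 promoters of the list. This core occurred in 14.75% of promoters of tested genes and 12.06% of all promoters. The ATF4 composite core TGATGNAA occurred in 1 of 13 promoters of ATF4-list genes that rose (Slc1a4) and in 10 of the 34 promoters of that list, against 1.78% of promoters of tested genes and 3.98% of all promoters. A match describes these letters in this window only.

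In the fit of both sets, with label set as a term, limma called 1909 probe sets (11.4% of those tested) at a Benjamini-Hochberg adjusted p under 0.05. Of these, 1074 were higher and 835 lower under NS-398, and 307 changed by at least 1.5-fold. Tested within each set, 594 probe sets (3.53%) were called in both sets in the same direction, 389 higher and 205 lower. These were 28.9% of the calls in the set without the suffix and 23.3% of the calls in set b. A further 106 probe sets were called in both sets in opposite directions, and the NS-398 effect differed between the sets (interaction term) at 1010 probe sets (6.01%). For gene counts each of 9592 genes was represented by its brightest tested probe set. Of these genes 6.94% rose and 5.39% fell in the fit of both sets, 2.49% rose and 1.45% fell in both sets, and 7.31% had an effect that differed between the sets. Counts in the gene lists below are to be read beside these shares. The median log2 change over all genes was -0.003. A log2 change below is NS-398 minus DMSO on log2(signal + 50), which understates the change of dim genes, and it is given with its standard error.

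The arrays differed by label set more than by drug. The median signal was 97.8 to 107 and the share of probe sets at 100 or more was 49.7% to 51.0%. The first principal component (72.3% of the variance) separated the sets and the second (11.0%) separated NS-398 from DMSO arrays. The actin 3′/5′ ratio, a sign of RNA integrity, was 1.57 and 1.51 on NS-398 arrays and up to 1.64 on DMSO arrays without the suffix. In set b it was 1.30 and 1.22 on NS-398 arrays, against 1.34 and 1.27 on DMSO arrays. Of 20 markers of intestinal epithelium, 10 were tested. Cdh1 was at 2637 to 8412 and Krt8 at 2670 to 5909, whereas Epcam, Krt18, Muc2 and Fabp2 stayed under 100 on all 8 arrays. Some markers differed strongly between the sets in both groups. Cdx2 was at 55.0 to 99.8 without the suffix and at 3072 to 5314 in set b. Krt19 was at 44.8 to 119 and 345 to 766 in the same order. Cdh1 went the other way, at 7790 to 8412 without the suffix and 2637 to 3295 in set b. Vim (21944 to 24589) and Col1a1 (10473 to 21401), markers of mesenchymal cells, were bright throughout. Of the 14 markers of fibroblasts and smooth muscle, 3 (Pdgfrb, Thy1 and Cnn1) stayed under 100 on all 8 arrays. Krt8 was the only epithelial marker called (log2 change -0.30, limma adjusted p = 0.00316). Summed epithelial marker signal was 23246 to 23444 on NS-398 arrays against 23847 to 24229 on DMSO arrays without the suffix, and 21677 to 23017 against 21223 to 21720 in set b.

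Genes of the NRF2 response were among those that rose in both sets. Of 19 tested members of the quinone, heme and thioredoxin list, 9 rose and none fell by limma (also none at an unadjusted p under 0.05), and the 9 were called in each set, against 2.49% of all genes. All 19 changes had a positive sign, and the median was 0.31, against -0.003 over all genes. Hmox1, which breaks heme down to biliverdin, iron and carbon monoxide, had signals of 949, 927, 653 and 826 on NS-398 arrays 1, 2, 1b and 2b, against 442, 379, 251 and 285 on the DMSO arrays in the same order. Every NS-398 array exceeded every DMSO array, and the log2 change was 1.20 ± 0.10 (limma adjusted p = 2.79e-05). Nqo1, a quinone reductase, reached 14525, 14515, 12582 and 12717 under NS-398, against 10880, 9895, 8383 and 8576 under DMSO. These groups did not overlap either (log2 change 0.53 ± 0.04, limma adjusted p = 3.24e-05).

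Srxn1, which restores oxidised peroxiredoxins, was at 639, 697, 836 and 1015 on NS-398 arrays, against 300.5, 306, 558 and 535 on DMSO arrays. The lowest NS-398 array stood above the highest DMSO array, with a log2 change of 0.86 ± 0.10 (limma adjusted p = 0.00024). Nfe2l2 itself rose by 0.32 ± 0.04, and Txnrd1, which reduces thioredoxin, by 0.47 ± 0.09. Txnrd1 changed more without the suffix (0.69) than in set b (0.26, interaction limma adjusted p = 0.0277). Osgin1 (1.22 without the suffix, 0.63 in set b) and the carbonyl reductase Cbr3 (1.09 and 0.59) also rose in each set. Txn1, thioredoxin, was at 29230, 29365, 28885 and 28984 under NS-398 against 25176, 25744, 24788 and 24864 under DMSO. Its rise was small (0.21 ± 0.03, limma adjusted p = 0.00149), and it was 0.01 under quantile normalization within sets and reversed to -0.00 under quantile normalization of all arrays.

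**Figure D1:**
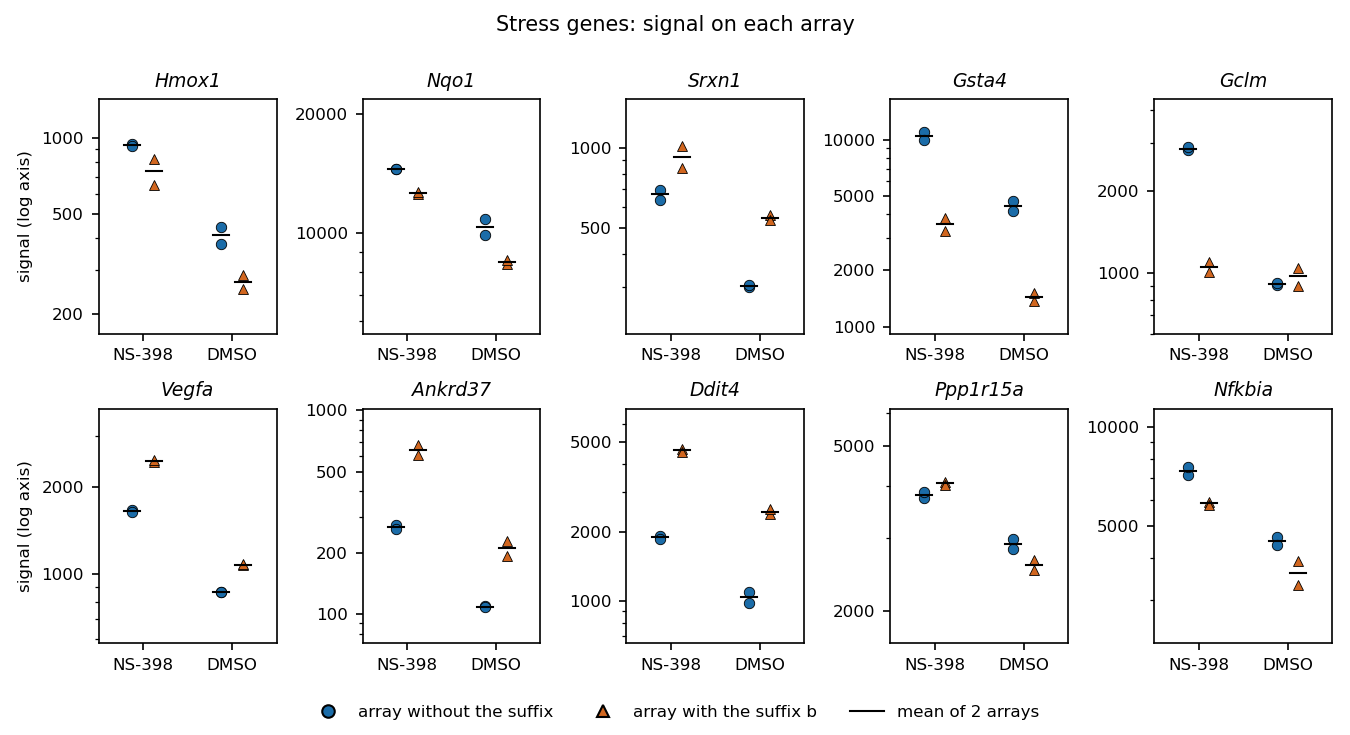
Signal (log axis) of 10 stress genes on each NS-398 and DMSO array, with circles for arrays without the suffix, triangles for set b and bars for the mean of 2 arrays. Gclm is apart in the circles, at 2831 and 2910.1 under NS-398 against 906 and 923 under DMSO, and overlaps in the triangles, while each of the other genes is higher under NS-398 in both sets.

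Some genes of cystine import, glutathione synthesis and glutathione conjugation rose. Of 31 tested members of that list, 15 rose and 2 fell, against 6.94% and 5.39% of all genes. In both sets 11 rose and 1 fell, against 2.49% and 1.45%, and the median log2 change was 0.28. Slc7a11, which imports cystine for glutathione synthesis and belongs to 3 of the lists, was at 291, 303, 783 and 1152 on NS-398 arrays and 43.2, 57.2, 527 and 600.0 on DMSO arrays. Within each set the groups were apart, and the change was larger without the suffix (1.80) than in set b (0.71, interaction limma adjusted p = 0.0175). Gclc, the catalytic subunit of the enzyme that starts glutathione synthesis, rose in both sets (0.82 and 0.35). Its partner Gclm had 2831, 2910.1, 1100.4 and 1008 under NS-398, against 906, 923, 1048 and 898 under DMSO. Gclm was high on the 2 NS-398 arrays without the suffix alone, and the sets differed (1.60 and 0.11, interaction limma adjusted p = 9.88e-05).

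Among the transferases, Gsta4, which conjugates the lipid peroxidation product 4-hydroxynonenal, was at 10978, 10008, 3268 and 3796 under NS-398 and 4722, 4175, 1377 and 1507 under DMSO. Its change was nearly equal in the sets (1.23 and 1.26), with 1.25 ± 0.07 in the fit of both (limma adjusted p = 1.84e-06). Gstt2 had 645, 539.5, 1134 and 1124 on NS-398 arrays, against 276, 318, 472 and 509 on DMSO arrays. All 4 NS-398 arrays were above all 4 DMSO arrays (1.01 ± 0.09, limma adjusted p = 6.37e-05). Gsta1 (0.71 ± 0.09), Gstm1 (0.55 ± 0.07), Gstm5 (0.35 ± 0.05) and Gstp1 (0.32 ± 0.05, whose promoter is printed above) rose in both sets, as did glutathione reductase, Gsr (0.47 ± 0.08). Transferases of one subfamily are close in sequence, so their probe sets may share signal. Gpx8, a glutathione peroxidase of the endoplasmic reticulum, fell in both sets, to 3720.1, 3581, 3178 and 3266 under NS-398 against 4746, 4597, 3804 and 3886 under DMSO (-0.30 ± 0.05, limma adjusted p = 0.00333).

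Enzymes that supply NADPH and clear aldehydes changed in part. Of 12 pentose phosphate and NADPH genes, 3 rose (Tkt, Taldo1 and Rpia) and 1 fell (Nnt), all in both sets. Over all genes 6.94% rose and 5.39% fell, and 2.49% rose and 1.45% fell in both sets. Transketolase, Tkt, was at 5781, 6055, 6554 and 6917 under NS-398, against 3793, 3659, 4692 and 4903 under DMSO, without overlap (0.57 ± 0.05, limma adjusted p = 7.28e-05). Taldo1, transaldolase, rose by 0.33 ± 0.05, and Nnt, a mitochondrial NADPH source, had a log2 change of -0.41 ± 0.06. Of 24 aldehyde dehydrogenases and aldo-keto reductases, 7 rose and 3 fell, against 6.94% and 5.39% of all genes. In both sets 4 rose, against 2.49%. The count of falls was 0 to 2 when any 1 array was left out, and 0 without NS-398 array 2. Akr1b8, an aldo-keto reductase, had 24656, 25019, 25019 and 25866 on NS-398 arrays, against 12453, 12178, 13783 and 14744 on DMSO arrays, a log2 change of 0.92 ± 0.04 (limma adjusted p = 1.15e-06).

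Aldh1a1, which oxidises retinaldehyde, was at 5167, 4408, 188 and 195 under NS-398 and 651, 694, 52.8 and 39.2 under DMSO. Its level differed between the sets more than between the groups, and within each set NS-398 arrays were above DMSO arrays (2.74 and 1.34, interaction limma adjusted p = 0.000827). Of 13 genes of the aryl hydrocarbon receptor and xenobiotic list, 3 rose and 1 fell, against 6.94% and 5.39% of all genes. The median was -0.05. In both sets 2 rose, against 2.49%, and 1 of these was Nqo1, counted above in the NRF2 list. The drug and prostaglandin exporter Abcc4 rose in both sets (0.59 ± 0.09). The sulfotransferase Sult1a1 was at 156, 99.8, 71 and 69.8 under NS-398 against 467, 383, 89.2 and 88.7 under DMSO, a fall carried by the set without the suffix (interaction limma adjusted p = 0.0177), and the call was lost without DMSO array 1 or 2 or NS-398 array 1 or 2.

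**Figure D2:**
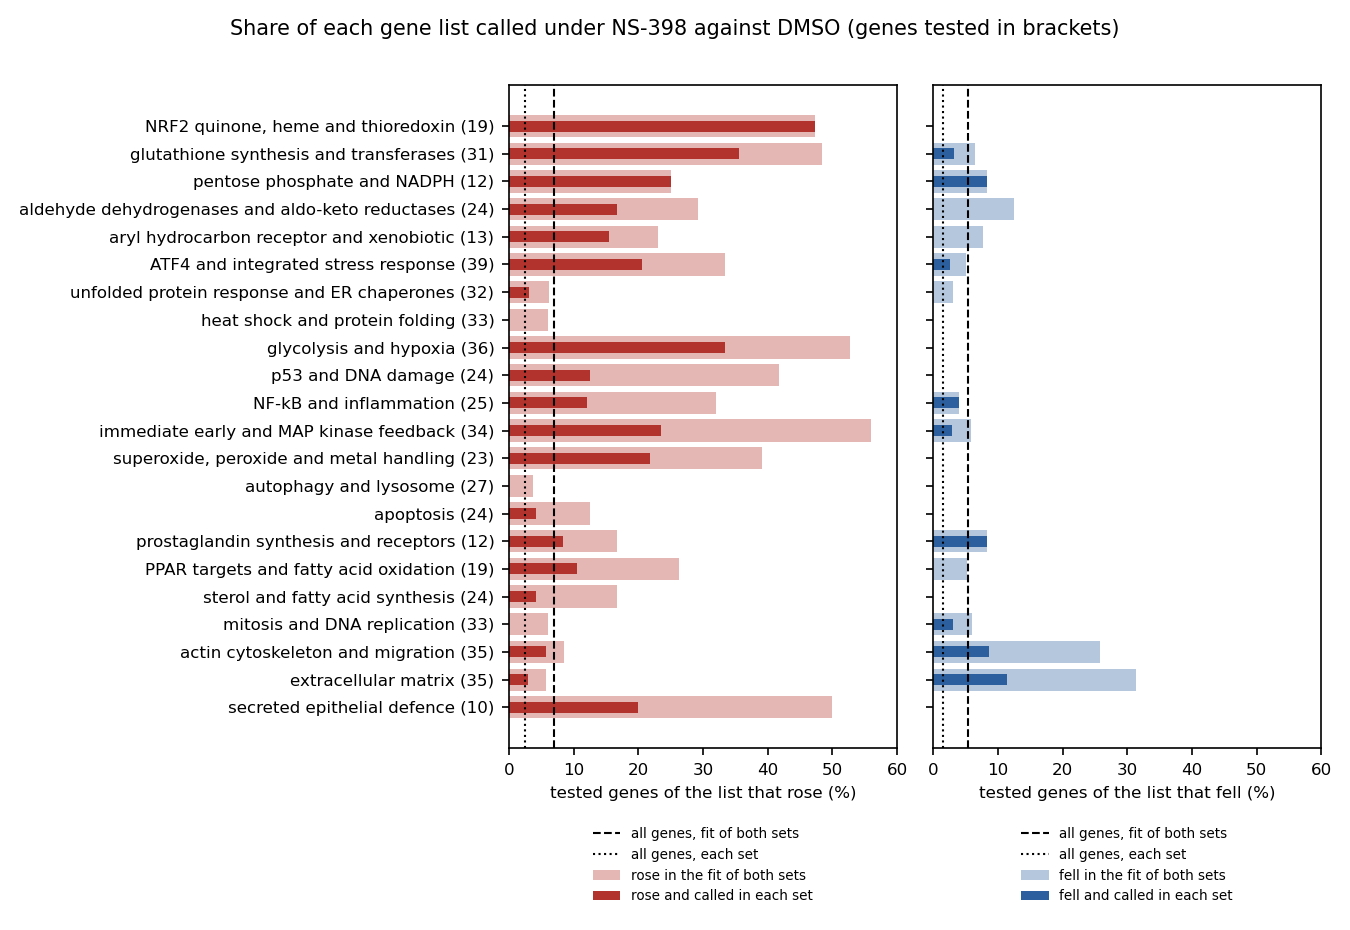
Share of the tested genes of each list that rose (left) or fell (right) under NS-398, in percent; wide pale bars are calls in the fit of both sets, narrow dark bars are genes also called in each set, and vertical lines give the same shares over all 9592 genes. In the NRF2 list the wide and narrow bars coincide at 9 of 19 genes, and the actin and matrix lists have the longest bars on the right.

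Many genes of glycolysis and the hypoxia response rose. Of 36 tested members 19 rose, 12 of them in both sets, and none fell by limma (1 at an unadjusted p under 0.05). Over all genes 6.94% rose, and 2.49% rose in both sets. The median log2 change was 0.29, with 0.11 in the set lacking the suffix and 0.505 in set b. The effect differed between the sets for 12 members, against 7.31% of all genes. Vegfa, the angiogenic growth factor, was at 1662, 1644, 2444 and 2481 on NS-398 arrays and at 868, 866, 1078 and 1082 on DMSO arrays. The groups were fully apart, with a log2 change of 1.02 ± 0.07 (limma adjusted p = 6.93e-06). Ankrd37, a hypoxia-inducible ankyrin repeat protein, had 272, 263, 602 and 679 under NS-398, against 109.8, 108, 192 and 229 under DMSO. It was higher in set b than without the suffix in both groups, and no NS-398 array fell within the DMSO range (1.21 ± 0.11, limma adjusted p = 7.18e-05).

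Ddit4, an inhibitor of mTORC1 that is also counted in the ATF4 and p53 lists, was at 1918, 1872, 4649.6 and 4496 under NS-398 and 1093, 972, 2391 and 2522 under DMSO. Within each set the groups were apart, and the change was alike in them (0.85 and 0.88, limma adjusted p = 7.33e-06 in the fit of both). Among glycolytic genes called in both sets, triosephosphate isomerase Tpi1 changed by 0.57 ± 0.04, hexokinase Hk2 by 0.85 ± 0.14 and the glucose transporter Slc2a1 by 0.45 ± 0.07. The peptide hormone adrenomedullin, Adm, rose by 1.01 ± 0.12. Car9, a cell surface carbonic anhydrase, rose more in set b (0.82) than without the suffix (0.34, interaction limma adjusted p = 0.00965). Pfkp was at 207, 240.1, 1522 and 1494 under NS-398 against 186, 208, 842 and 842 under DMSO and its change was 0.15 without the suffix and 0.81 with it (interaction limma adjusted p = 0.0251).

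**Figure D3:**
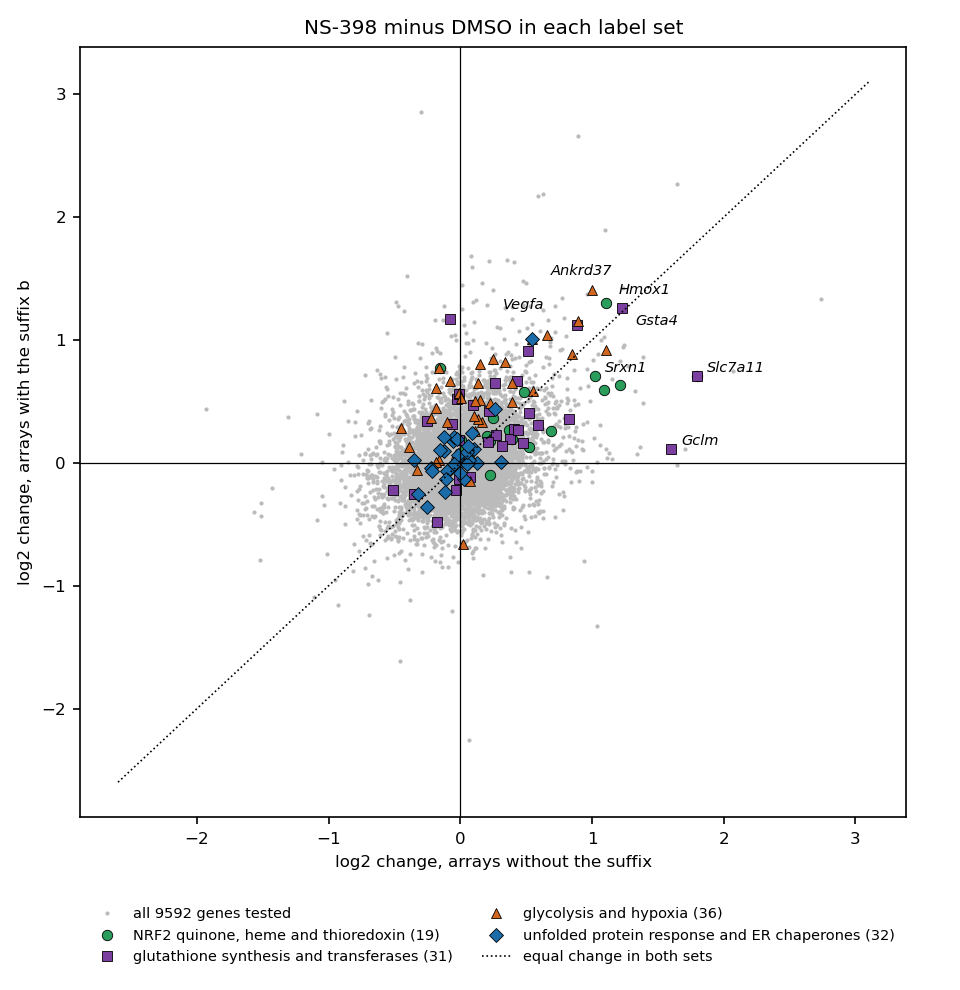
Log2 change under NS-398 in set b (vertical) against that without the suffix (horizontal), for all 9592 genes (grey) and 4 lists; the dotted line marks equal change. Hmox1 and Gsta4 lie near the line, Slc7a11 and Gclm lie to its right, and the unfolded protein response list lies around 0.

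The ATF4 list changed in part. Of 39 tested members 13 rose and 2 fell, against 6.94% and 5.39% of all genes. In both sets 8 rose and 1 fell, against 2.49% and 1.45%. The median was 0.08, with 0.16 in the set lacking the suffix and -0.003 in set b. The effect differed between the sets for 9 members, against 7.31% of all genes. Ppp1r15a (GADD34), which recruits a phosphatase to eIF2α, was at 3754, 3869, 4099 and 4036 on NS-398 arrays, against 2828, 2979.7, 2505 and 2658 on DMSO arrays. No array of one group lay within the other, and the log2 change was 0.52 ± 0.06 (limma adjusted p = 0.000511). Atf4 rose in the set without the suffix (0.57) and had 0.08 in set b, and these differed (interaction limma adjusted p = 0.0159). Sesn2 (1.06 and 0.14) and the amino acid transporter Slc1a4 (1.11 and 0.04) also differed between the sets. Mthfd2, a mitochondrial folate enzyme, and Slc3a2, a subunit of amino acid exchangers, rose in both sets (0.59 ± 0.11 and 0.40 ± 0.05). Mitochondrial Pck2 fell in both, to 867, 864, 1110 and 1238 under NS-398 against 1133, 1185, 1454 and 1591 under DMSO (-0.38 ± 0.07, limma adjusted p = 0.00461). Asns, asparagine synthetase, was not called in the fit of both sets (0.30, limma adjusted p = 0.111). It rose without the suffix (0.61, limma adjusted p = 0.00171), had -0.003 in set b, and differed between the sets (interaction limma adjusted p = 0.0202). Trib3 (0.42, limma adjusted p = 0.0699) did not pass the test.

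Chaperone genes stayed near the background share. Of 32 genes of the unfolded protein response, 2 rose (Ero1a and Sdf2l1) and 1 fell (Dnajc3), against 6.94% and 5.39% of all genes, and the median was 0.02. Hspa5 (BiP), the main chaperone of the endoplasmic reticulum, had 13054, 14257, 14073 and 14324 under NS-398 and 13338, 13253, 13872 and 13877 under DMSO. The groups overlapped (0.04 ± 0.04, limma adjusted p = 0.623). The oxidase Ero1a, also a member of the hypoxia list, was at 944, 1073, 1811 and 1595 on NS-398 arrays, against 689, 658, 806 and 837 on DMSO arrays (0.78 ± 0.10, limma adjusted p = 0.000614). The fall of Dnajc3 (-0.29 ± 0.07) was not called in set b, and it lost its call without DMSO array 1 or 1b or NS-398 array 1b or 2. Of 33 heat shock genes, 2 rose (Hsp90ab1 and Dnajb4), neither in both sets, against 6.94% of all genes. When any 1 array was left out 0 or 1 rose (5 rose at an unadjusted p under 0.05 with all arrays). The inducible Hspa1a was at 113, 108, 251 and 285 under NS-398, against 259, 281, 219 and 220.0 under DMSO. It was lower under NS-398 without the suffix and higher in set b. Hsph1 had a log2 change of 0.07, and neither gene was called in the fit of both sets.

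Many feedback inhibitors and immediate early genes rose. Of 34 immediate early and MAP kinase feedback genes, 19 rose and 2 fell, against 6.94% and 5.39% of all genes. In both sets 8 rose and 1 fell, against 2.49% and 1.45%, and the median was 0.34. Klf4, a transcription factor of epithelial differentiation, was at 10281, 10603, 7876 and 7187 under NS-398 and 7136, 7388, 5159.9 and 4793 under DMSO. The groups were apart within each set (0.56 ± 0.05, limma adjusted p = 5.41e-05). Ier5 (0.48 ± 0.05), Ier2 (0.65 ± 0.10) and Spry2, an inhibitor of receptor tyrosine kinase signalling (0.52 ± 0.07), rose in both sets. Nr4a3 reached 1703, 1866, 883 and 908 under NS-398 against 1590.5, 1585, 268 and 317 under DMSO, and its change was larger in set b (0.16 and 1.47, interaction limma adjusted p = 0.00032). Egr1 fell in both sets, to 4351, 4004, 2809 and 2573 under NS-398, against 5402, 6329, 3191 and 3283 under DMSO (-0.37 ± 0.07, limma adjusted p = 0.00596).

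In the NF-kB list 8 of 25 genes rose and 1 fell, against 6.94% and 5.39% of all genes. In both sets 3 rose and 1 fell, against 2.49% and 1.45%. The 8 became 4 without DMSO array 2 or without NS-398 array 2. Nfkbia, the inhibitor that retains NF-kB in the cytoplasm, had 7151, 7553, 5921 and 5815 on NS-398 arrays and 4629.8, 4402, 3319.8 and 3925 on DMSO arrays. All NS-398 arrays were above all DMSO arrays, with equal change in the sets (0.69 ± 0.06, limma adjusted p = 3.24e-05). Tnfaip3 (A20), another feedback inhibitor, rose by 0.59 ± 0.08. The cytokine Il18 fell in both sets, to 799, 747, 622 and 668 under NS-398 against 1351, 1269, 873 and 825 under DMSO (-0.55 ± 0.09, limma adjusted p = 0.00232). The alarmin Il33 was at 1094, 1397, 1467 and 1427 under NS-398, against 588, 568, 3491 and 3949.6 under DMSO, higher without the suffix (1.03) and lower in set b (-1.33), and was not called in the fit of both (interaction limma adjusted p = 1.1e-05).

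Of 24 p53 and DNA damage genes, 10 rose, 3 in both sets, against 6.94% and 2.49% of all genes. None fell by limma (also none at an unadjusted p under 0.05), and 6 rose without DMSO array 2 or without NS-398 array 2. Gadd45b, a stress sensor, was at 3950.5, 4000.2, 4878 and 4399.8 under NS-398 and 2582, 2316, 3133 and 3086 under DMSO, without overlap (0.63 ± 0.06, limma adjusted p = 7.79e-05). The cell cycle inhibitor Cdkn1a was at 394, 445, 293 and 169.5 under NS-398, against 352, 263, 304 and 269 under DMSO, and was not called (limma adjusted p = 0.875). Of 24 apoptosis genes 3 rose, against 6.94% of all genes. Of the 3, Bcl2l11 (BIM), which promotes cell death, rose in both sets (0.54 ± 0.08, limma adjusted p = 0.00121). For Bcl2l11 1 of 2 tested probe sets was called, the other having 0.29. Of 27 autophagy and lysosome genes 1 rose, against 6.94% of all genes. This was Npc2, at 7380, 7513, 7809 and 8104 under NS-398 against 7442, 6804, 5367 and 5368 under DMSO. Npc2 was called within set b and not without the suffix (0.56 and 0.07, interaction limma adjusted p = 0.00354), and without DMSO array 1b, 2 or 2b or NS-398 array 1b or 2b it was not called.

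Of 23 genes of superoxide, peroxide and metal handling, 9 rose, 5 in both sets, against 6.94% and 2.49% of all genes. None fell by limma (1 at an unadjusted p under 0.05). Scara5, a receptor for ferritin, was at 1309.8, 1673, 1526 and 1413 on NS-398 arrays, against 615, 584, 519 and 513 on DMSO arrays. The lowest NS-398 array was above the highest DMSO array (1.33 ± 0.09, limma adjusted p = 5.17e-06). The iron exporter Slc40a1 (ferroportin) rose more without the suffix (1.39) than in set b (0.48, interaction limma adjusted p = 0.0256). Ceruloplasmin, Cp, which oxidises iron for export, rose by 0.54 ± 0.08, and catalase, Cat, had a log2 change of 0.55 ± 0.12.

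Outside the stress lists, the largest rises called in both sets included Fabp4, a fatty acid carrier and target of PPARγ, at 1931, 2052, 898 and 1021 under NS-398 and 635, 572, 176 and 143 under DMSO (1.96 ± 0.12, limma adjusted p = 4.22e-06). Of 19 PPAR target and fatty acid oxidation genes, 5 rose and 1 fell, against 6.94% and 5.39% of all genes. In both sets 2 rose, against 2.49%, and the median was -0.001. The 5 became 2 without NS-398 array 2 and 3 without DMSO array 1 or 2b or NS-398 array 1b. Hsd11b1, which regenerates active glucocorticoid, was at 4280, 4226, 1733 and 1692 under NS-398, against 2030.3, 1897, 376 and 476 under DMSO (1.10 without the suffix and 1.90 in set b, limma adjusted p = 6.37e-05 in the fit of both). Sat1, which acetylates polyamines for export, was at 4860, 5348, 1593 and 1668 under NS-398 and 2282, 1976, 849 and 779 under DMSO (1.10 ± 0.08, limma adjusted p = 9.95e-06). Within each set NS-398 arrays were above DMSO arrays for these 3 genes.

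In the list of secreted epithelial defence proteins 5 of 10 rose, 2 in both sets, against 6.94% and 2.49% of all genes. The trefoil peptide Tff2 was at 65.3, 44.3, 421 and 301 under NS-398 and 5.24, 7.27, 6.98 and 22.2 under DMSO, near background in DMSO cells. Lbp, which binds bacterial lipopolysaccharide and is not in that list, had 773, 692, 2119.8 and 2018 on NS-398 arrays against 508, 432, 397 and 445 on DMSO arrays. Lbp rose more in set b than without the suffix (interaction limma adjusted p = 0.000215). Among NS-398 and DMSO arrays, Tff2 exceeded a signal of 100, the minimum used for testing, only on NS-398 arrays 1b and 2b. Tff2 thus entered the test only through NS-398 arrays. Its call in the set without the suffix lay wholly below that minimum, and the size of its change depends on the pseudocount. Clusterin, Clu, an extracellular chaperone, was at 13501, 12976, 8181 and 8093 under NS-398 and 8023, 8018, 3652 and 4076 under DMSO (0.89 ± 0.07, limma adjusted p = 2.01e-05), and 1 of its 2 tested probe sets was called, the other having 0.32.

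Of the 22 lists, those of matrix and actin genes had the largest shares of falls. In the extracellular matrix list 11 of 35 genes fell, 4 in both sets, against 5.39% and 1.45% of all genes. The list had 2 rises. Its median was -0.10 (-0.23 in the set lacking the suffix, -0.009 in set b), and the effect differed between the sets for 11 members, against 7.31% of all genes. In the actin and migration list 9 of 35 fell, 3 in both sets, against 5.39% and 1.45% of all genes. The list had 3 rises, and its median was -0.15 in the set lacking the suffix, against -0.02 for set b. The 9 became 5 without DMSO array 1 or 1b and 4 without DMSO array 2 or NS-398 array 1. Dock11, which activates the GTPase Cdc42, was at 1171, 1168, 600.3 and 513 on NS-398 arrays and 2620.3, 2547, 1267 and 1219 on DMSO arrays. Its change was alike in the sets (-1.10 ± 0.07, limma adjusted p = 4.22e-06). Tropomyosin Tpm1 was at 10656, 10244, 9723 and 8672 under NS-398, against 13684, 13738, 12495 and 11774 under DMSO (-0.40 ± 0.05, limma adjusted p = 0.000356), and each of its 5 tested probe sets fell. Both genes had every NS-398 array below every DMSO array.

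Thrombospondin 2, Thbs2, had 34.6, 46.9, 685 and 782 under NS-398, against 105, 88.7, 1681 and 1918 under DMSO. It was dim without the suffix, and lower under NS-398 within each set (-0.97 ± 0.12, limma adjusted p = 0.000697). The basement membrane protein Nid1 was at 3379, 3631, 2677 and 2253 under NS-398 and 5162, 5955, 4583 and 4052 under DMSO (-0.73 ± 0.07, limma adjusted p = 0.000135), and 1 of its 2 tested probe sets fell. The microfibril protein Mfap4 was at 253, 295, 376 and 374 under NS-398, against 675, 606, 587 and 489 under DMSO, without overlap (-0.78 ± 0.13). The proteoglycan decorin, Dcn, rose in both sets (0.80 ± 0.11). Summed signal of 14 fibroblast and smooth muscle markers was 68543 to 72700 on NS-398 arrays against 72940 to 75105 on DMSO arrays without the suffix, and 92030 to 96928 against 91232 to 94541 in set b. Of the 11 of these markers tested, 2 rose and 2 fell, and their part in the matrix results was not tested. In bulk RNA fewer cells of a type and less RNA per cell cannot be told apart.

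**Figure D4:**
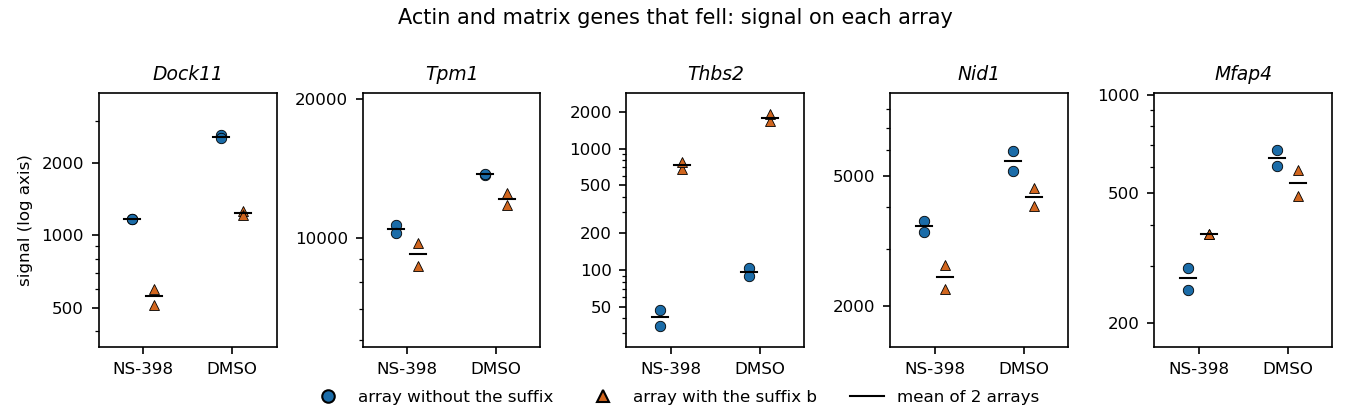
Signal (log axis) of 5 actin and matrix genes on each NS-398 and DMSO array, with circles for arrays without the suffix, triangles for set b and bars for the mean of 2 arrays. In every panel both NS-398 symbols of a set lie below the DMSO symbols of that set.

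Other large falls called in both sets were Igfbp2, which binds insulin-like growth factors (-0.74 ± 0.07), the tendon and fibroblast transcription factor Scx (-0.85 ± 0.10), periplakin Ppl (-0.95 ± 0.11), the junction protein Cgnl1 (-0.85 ± 0.10) and the adaptor Afap1l2 (-0.88 ± 0.08). Fam180a was at 1220.5, 994, 871 and 842 under NS-398, against 3303, 3219, 1616 and 1419 under DMSO, without overlap. Of 33 mitosis and replication genes 2 rose and 2 fell, near the 6.94% and 5.39% of all genes. The effect differed between the sets for 10 of the 33, against 7.31% of all genes. The median of the list was 0.09 in the set lacking the suffix and -0.22 in set b. Mki67, a marker of dividing cells, fell in both sets by little (-0.23 ± 0.05, limma adjusted p = 0.0101). Of 24 sterol and fatty acid synthesis genes 4 rose, against 6.94% of all genes. The 4 became 2 without DMSO array 1 or 2 or NS-398 array 1 or 2. In both sets 1 rose, Insig1 (0.38 ± 0.05), against 2.49%.

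The target of NS-398, Ptgs2 (cyclooxygenase-2), was at 2496, 2913, 1784 and 1502 on NS-398 arrays and 2309, 2358, 1386 and 1416 on DMSO arrays. Each set had its NS-398 arrays above its DMSO arrays, but the change was not called (0.21 ± 0.07, limma adjusted p = 0.0794). Both probe sets of Ptgs1 stayed at 51.7 or less on all 8 arrays and were not tested. Of 12 prostaglandin genes 2 rose and 1 fell, against 6.94% and 5.39% of all genes. Ptgr1, which inactivates prostaglandins and reduces lipid aldehydes, rose in both sets (0.67 ± 0.10), and Ptgis, prostacyclin synthase, fell in both (-0.51 ± 0.09, limma adjusted p = 0.0051).

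NS-398 and indomethacin were compared directly in set b, at equal dose and time, with 2 arrays each. Of all genes, 6.56% were higher and 4.33% lower under NS-398 than under indomethacin. In the glycolysis and hypoxia list 21 of 36 genes were higher under NS-398 and none lower (2 at an unadjusted p under 0.05). In the glutathione list 12 of 31 were higher and none lower by limma (1 at an unadjusted p under 0.05). In the ATF4 list 5 of 39 were higher and 21 lower, and in the unfolded protein response list 1 of 32 was higher and 11 lower. The NRF2 list had 1 higher and 1 lower of 19. The changes against DMSO share the 2 DMSO arrays of set b and are therefore given side by side only. The median for the NRF2 list was 0.26 under NS-398 and 0.22 under indomethacin, and for the unfolded protein response list 0.01 and 0.22.

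Gsta4 was at 3268 and 3796 under NS-398 and 1379 and 1528 under indomethacin in set b, where DMSO arrays had 1377 and 1507. The difference between the drugs was 1.25 ± 0.09 (limma adjusted p = 2.64e-05). Nfkbia had 5921 and 5815 under NS-398, 2380 and 2665 under indomethacin and 3319.8 and 3925 under DMSO, a difference between the drugs of 1.20 ± 0.10 (limma adjusted p = 6.7e-05). NS-398 arrays were thus above DMSO and indomethacin arrays below it. Ankrd37 was at 602 and 679 under NS-398, 233 and 293 under indomethacin and 192 and 229 under DMSO (1.15 ± 0.16 between the drugs, limma adjusted p = 0.000987).

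In the other direction, Chac1, a glutathione-degrading enzyme induced by ATF4, was at 521 and 545 under NS-398, 1116 and 1176 under indomethacin and 637 and 596 under DMSO. Indomethacin arrays were the highest, and the drugs differed by -1.04 ± 0.10 (limma adjusted p = 0.000154). Hspa5 had 14073 and 14324 under NS-398, 16542 and 16159 under indomethacin and 13872 and 13877 under DMSO (-0.20 ± 0.04 between the drugs, limma adjusted p = 0.00909). Fabp4 was at 898 and 1021 under NS-398, 1049 and 1031 under indomethacin and 176 and 143 under DMSO, and the drugs were not called different (-0.11 ± 0.12, limma adjusted p = 0.639). The interaction of NS-398 with the label set could not be set beside indomethacin, which has no arrays without the suffix.

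**Figure D5:**
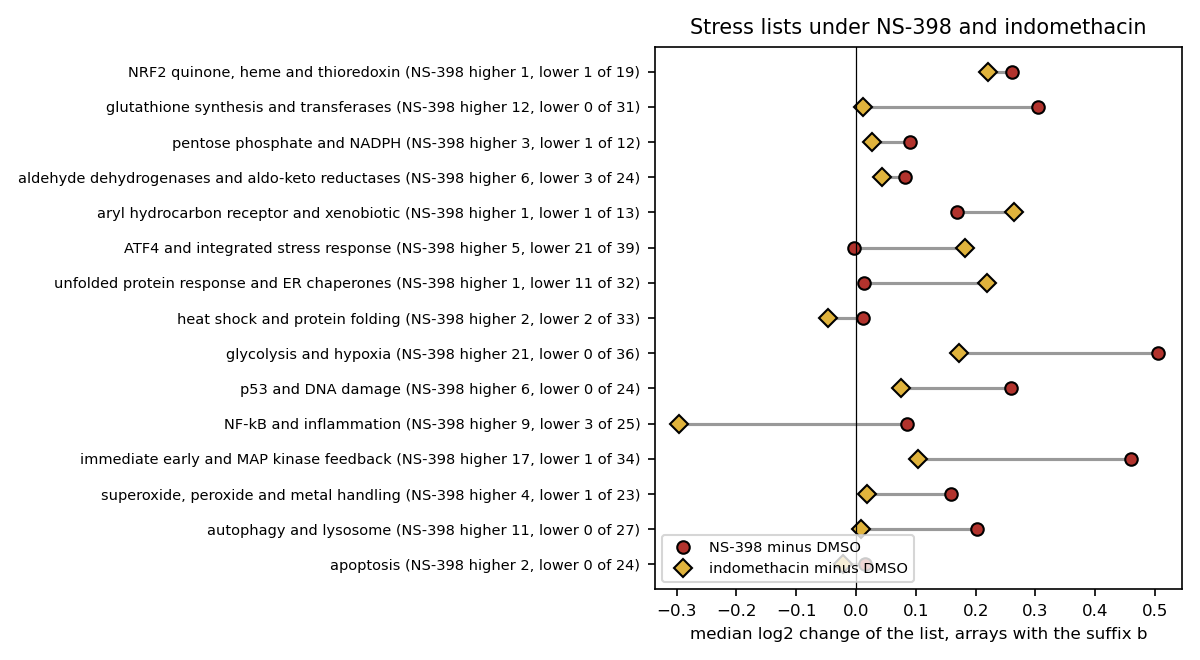
Median log2 change against DMSO in set b of the 15 stress lists, under NS-398 (circles) and indomethacin (diamonds); brackets count genes higher or lower under NS-398 than under indomethacin by limma. NS-398 lies right of indomethacin for glycolysis and hypoxia and for NF-kB, and left of it for the ATF4 and unfolded protein response lists.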

How the data were processed

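Total RNA from pooled IEC-6 cultures was amplified and hybridised to Affymetrix rat arrays, per the labels' protocols. The deposited table holds 1 linear intensity (signal) per probe set and array, scaled by the authors to a target of 500 per the labels; the summarising software is not given in the sources used here. Probe sets (31099, with 57 controls) were named from the platform annotation: 20832 had 1 symbol, 436 had several and 9831 had none here. Symbols were updated by gene identifier to RefSeq names of GRCr8. Signals were filtered (100 on at least 2 of 8 arrays), a pseudocount of 50 was added, and log2 values were fitted with limma 3.58.1 in R 4.3.3 (eBayes with intensity trend, two-sided, Benjamini-Hochberg over all tested probe sets), with label set as a term, then with 4 group-by-set means. Set b was fitted with its 8 arrays to compare NS-398 and indomethacin. The number of arrays limits the precision. The code was tested on simulated data. The 22 gene lists and the members were chosen with earlier results of these data known. Named genes were the 12 largest rises and falls called in both sets (mean signal of at least 200), and from each list the members with the smallest adjusted p in each direction; other genes in the text were picked after their values were seen. Same-numbered NS-398 and DMSO arrays did not deviate together once group and set means were removed (r = -0.008 and 0.071). Alternatives covered normalization, pseudocount, filters, trend, blocks, averaging and leaving out each array.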

Additional observations from a re-analysis of the deposited data

Results flagged for a closer look

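For 10 of the 62 named genes the NS-398 effect differed between the label sets by the limma interaction term (set b minus the set without the suffix, log2). Over all genes the share was 7.31%. The effect was smaller in set b for Aldh1a1 (-1.40, adjusted p = 0.000827) and Slc7a11 (-1.09, adjusted p = 0.0175). It was a larger rise in set b for Tff2 (1.77), Lbp (1.58), Hsd11b1 (0.80), Fabp4 (0.63), Npc2 (0.50) and Clu (0.35), with limma adjusted p between 0.000215 (Lbp) and 0.0366 (Fabp4). It was a smaller fall in set b for Sult1a1 (1.22, adjusted p = 0.0177) and Fam180a (0.74, adjusted p = 0.0104). For Tff2 all DMSO arrays and the NS-398 arrays without the suffix were below a signal of 100, so the size of its value depends on the pseudocount. That limit also touches Aldh1a1 and Sult1a1, whose DMSO arrays of set b were below 100, and Slc7a11, whose DMSO arrays lacking the suffix were. Baseline levels also differed between the sets, as for Aldh1a1, whose DMSO arrays had 651, 694, 52.8 and 39.2. The part of these baselines in the differences was not tested.

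Among the 62 named genes, each with 4 NS-398 and 4 DMSO arrays, a single array stood apart in 3 groups of 4. The measure was the gap of that array to the nearest array over the range of the group. The ratio was 0.882 for Nnt on NS-398 arrays, where array 1b was lowest (2520.3, 2555, 2228 and 2514). It was 0.870 for Tnfaip3 on NS-398 arrays, where array 2b was lowest (1915, 1972, 1981 and 1525), and 0.865 for Tff2 on DMSO arrays, where array 2b was highest (5.24, 7.27, 6.98 and 22.2). Chance flags about 1 in 20 such groups if all 4 arrays share 1 mean and spread. These groups mix 2 label sets, so the rate for them can differ and was not tested.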

How the results depend on the processing

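The 1909 probe sets called became 425 when the 2 arrays of a group and set were averaged, 1188 with no filter, 1133 with no intensity trend and 2 with no label set term; with averaging 68.5% of the calls were higher, against 56.3%. With the replicate label as a block (replicate block) 1050 were called; after group and set means were removed the labels did not pair the arrays. Calls in both sets (594) became 306 with no filter and 225 with no trend, and the interaction count (1010) became 451 and 130. Leaving out each array gave 1244 to 1503 calls (1244 without DMSO 1b, 1272 without DMSO 2, 1259 without DMSO 2b), 277 to 541 in both sets (327 without DMSO 1, 348 without DMSO 1b, 313 without DMSO 2, 329 without NS-398 1, 277 without NS-398 2) and 329 to 1004 interactions (531, 460, 526, 485 and 329 without the same arrays). The 1665 probe sets that differed between NS-398 and indomethacin became 973 in a fit of all 14 arrays and 686 to 1501 with 1 array left out (1000 without NS-398 1b, 930 without NS-398 2b, 686 without indomethacin 1b, 760 without indomethacin 2b); a lone array was taken to vary like the others. The causes were not tested. Txn1 reversed to -0.00 under quantile normalization. Of 61 named genes called, 54 kept the call with each array left out (lost at least once: Aldh7a1, Sult1a1, Dnajc3, Dnajb4, Npc2, Ucp2 and Cks2). With the 2 arrays of a group and set as a random block, beside the label set term, 59 kept the call. With averaging 46 kept it. With averaging 6 NRF2, 8 glutathione, 10 hypoxia, 6 ATF4 and 7 immediate early genes rose, and 4 matrix genes fell. List counts of 3 or fewer often moved when 1 array was left out. Dim probe sets limit the precision of genes near a signal of 100.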
